A study of Mus musculus with 18 samples.

Results

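Livers sampled 7 days after injury without MycER activation (group 7OFF) were compared with livers sampled 12 days after injury with MycER activation (group 12ON). Each group holds 3 mice with 1 library a mouse, so the comparison is between 6 of the 18 libraries of the study. All mice of both groups had been injured with carbon tetrachloride, a toxin that kills hepatocytes around the central vein, given intraperitoneally in oil (0.5 µL for each g the mouse weighed). In MycER the transcription factor MYC is fused to part of the estrogen receptor, so that the protein is idle until a ligand binds, and tamoxifen was injected daily (1 mg, intraperitoneally) as that ligand. The labels do not give the promoter that drives MycER, the strain, age or sex of the mice or the hour of sampling, and they do not say whether MycER had been active earlier in 7OFF mice. 7OFF and 12ON differ both in the day after injury and in MycER activation, which tamoxifen brings about. The contributions of the day, of active MycER and of tamoxifen itself to any difference cannot be told apart. The study's design text set each of its 4 OFF groups against 12ON.

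MYC binds DNA together with MAX, and it is known for raising the genes of ribosome assembly, nucleotide synthesis and cell division. The adult liver is mostly quiescent and makes plasma proteins, bile acids, urea and drug-metabolising enzymes. After injury hepatocytes divide, and some genes of the fetal liver return, before the adult program is restored. Defining hepatocyte genes were high in both groups. Alb, which encodes albumin, had 47213, 70364 and 54329 CPM in 7OFF livers and 27573, 21612 and 22932 CPM in 12ON livers. Ttr and Serpina1a, for transthyretin and an antitrypsin, averaged 4011 ± 457 CPM in 7OFF and 1120.0 ± 34.2 CPM in 12ON, and 5193 ± 1199 CPM in 7OFF and 1924 ± 219 CPM in 12ON (SD, n = 3 mice each). Cps1, the first enzyme of the urea cycle, averaged 2858 ± 109 CPM in 7OFF and 3045 ± 127 CPM in 12ON, and its log2 difference of -0.09 ± 0.19 missed the threshold.

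The libraries held 35.1, 49.0 and 44.6 M gene counts in 7OFF and 46.8, 36.6 and 44.9 M in 12ON, within a range of 23.1 to 75.3 M over the study. Mitochondrially encoded genes took 5.54% to 6.19% of counts in 7OFF livers and 6.42% to 7.11% in 12ON livers, ranges that did not overlap. Xist, the RNA of the inactive X chromosome, was high in 7OFF replicate 3 and 12ON replicate 2 and near 0 in the other 7OFF and 12ON libraries. Elsewhere in the study it was high in 12 replicate 3, 3OFF replicate 3 and 2OFF replicate 1. The median gene had an SD of 0.22 log2 units among 7OFF livers, and of 0.15 among 12ON livers. Levels below are CPM (counts scaled to the TMM-adjusted library size), and log2 differences are 7OFF minus 12ON with their standard error. A gene rose or fell where edgeR's two-sided quasi-likelihood test gave an adjusted p under 0.05 (Benjamini-Hochberg, all genes tested). Nothing states whether mice of a group shared a cage or litter. The p-values measure only the spread between mice within groups, estimated over all 18 libraries of the study.

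Of the 17789 genes tested, 3801 were higher in 7OFF livers (21.4%) and 4032 were lower (22.7%). At least 2-fold higher were 1177 genes (6.62%), and at least 2-fold lower 1642 (9.23%). The CPM values of 7OFF and 12ON livers did not overlap in 9603 genes (54.0%). The lists of genes below stand against these shares. With library totals as the only scaling the median of all genes moved to -0.41, and 1348 genes were higher and 8204 lower, so that 14.1% of the calls were higher, against 48.5% with TMM. With a term for the mitochondrial share 2800 genes were higher and 3138 lower. A fit of the 2 groups alone, without the other libraries, gave 3244 higher and 3594 lower.

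**Figure D1:**
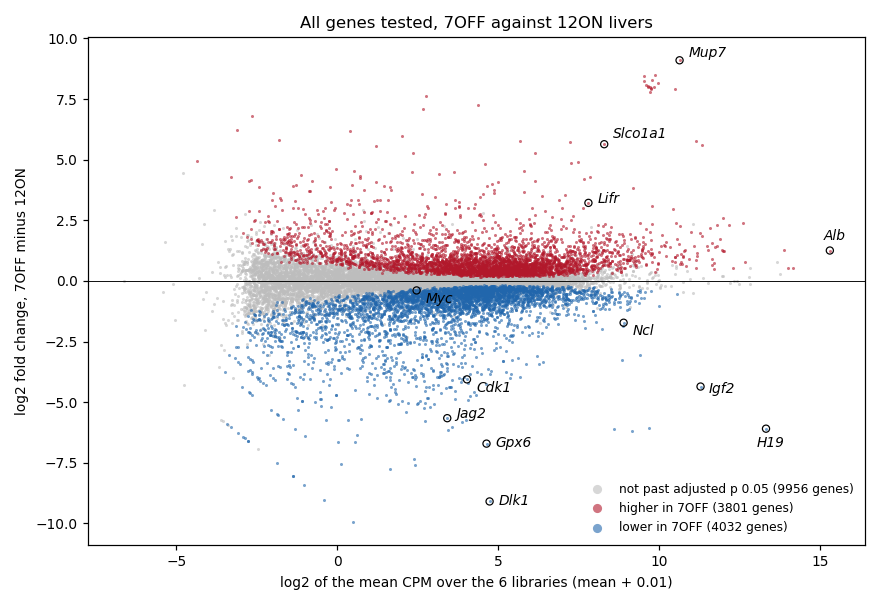
Each point is 1 of the 17789 genes tested, by its mean level over the 6 libraries (x axis, log2 CPM) and its log2 difference, 7OFF minus 12ON (y axis). Red points (3801) were higher and blue points (4032) lower in 7OFF, and the named genes include Mup7 at the top and Dlk1 at the bottom.

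Both parts of the construct were looked at in their gene totals, in which reads of a transgene and of the mouse gene cannot be separated. Myc (chromosome 15, 61985341 to 61990374 in GRCm38) had 3.77, 4.26 and 6.24 CPM in 7OFF livers and 6.96, 5.14 and 6.68 CPM in 12ON livers. The log2 difference was -0.39 ± 0.26 and did not pass (adjusted p = 0.23 by edgeR), and the 2 groups overlapped. Esr1, the estrogen receptor gene (chromosome 10, 4611593 to 5005614), had 14.7, 23.4 and 25.1 CPM in 7OFF livers and 9.94, 11.4 and 9.05 CPM in 12ON livers. It rose by 1.06 ± 0.33, with no overlap, and the call was lost without 12ON replicate 3 (log2 difference 0.97) or 7OFF replicate 3 (0.92). Among 14 genes of MYC, MAX and partner factors, 2 rose and 4 fell. Mlxipl, the carbohydrate-response factor ChREBP of hepatocytes, rose with 275, 293 and 305 CPM in 7OFF livers and 92.8, 106 and 119.9 CPM in 12ON livers, a log2 difference of 1.46 ± 0.15. Its partner Mlx rose by 0.44 ± 0.11. Mxd3 (-0.50 ± 0.11) and Mxi1 (-0.37 ± 0.10), which encode MAX partners that repress, and Mlxip (-0.46 ± 0.10) fell. Max fell (-0.27 ± 0.09), and its call was lost without 7OFF replicate 2 (-0.23).

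Growth genes of the fetal liver were among the genes with the lowest differences. Dlk1, a paternally expressed membrane protein gene of hepatoblasts (chromosome 12, 109452823 to 109463336), had 0.0349, 0.203 and 0.0235 CPM in 7OFF livers and 79.7, 38.5 and 41.2 CPM in 12ON livers. The 3 7OFF libraries together held 11 reads of it and the 12ON libraries 8246, and the log2 difference was -9.09 ± 1.08, or -10.74 without 7OFF replicate 2. H19, an imprinted non-coding transcript abundant before birth (chromosome 7, 142575529 to 142578143), had 125, 101 and 665 CPM in 7OFF livers and 17773, 19692 and 23315 CPM in 12ON livers. All 7OFF livers lay far below all 12ON livers, with 7OFF replicate 3 highest among them. The log2 difference was -6.09 ± 0.74, or -7.49 without that library. Igf2, the fetal growth factor gene beside H19, had 100.5, 105 and 496 CPM in 7OFF livers and 5023, 3698 and 5621 CPM in 12ON livers, a log2 difference of -4.35 ± 0.68, or -5.54 without 7OFF replicate 3. Mir675 (inside H19) and Igf2os (opposite Igf2) were also among the 15 lowest, at -6.198 ± 0.74 and -6.01 ± 0.59, or -7.59 and -6.998 without 7OFF replicate 3. Counting ignored strand and credited a read to each gene under it, so these 2 cannot be told from their neighbours.

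Of the 18 imprinted fetal growth genes tested, 0 rose and 8 fell, with a median log2 difference of -0.67. Rian, a maternally expressed RNA from the Dlk1 region, had 0.524, 0.496 and 0.938 CPM in 7OFF livers and 8.201, 5.74 and 13.6 CPM in 12ON livers (-3.79 ± 0.54). Igf2r, the receptor that clears IGF2, fell (-0.75 ± 0.12). In the list of fetal liver and hepatoblast genes 17 were tested, 0 rose and 9 fell, with a median of -1.28, or -1.99 without 7OFF replicate 3. Igf2bp3, which encodes a fetal mRNA-binding protein, had 3.598, 1.06 and 4.11 CPM in 7OFF livers and 31.2, 35.6 and 33.1 CPM in 12ON livers (-3.52 ± 0.49). Tspan8, a membrane protein gene, fell (-2.57 ± 0.47), and the small X-linked genes Bex1 (-5.26 ± 0.75) and Bex2 (-4.83 ± 0.60) fell. Sox4 fell (-2.25 ± 0.37), though 55% of its exon length is shared with another gene model. Afp, which encodes alpha-fetoprotein, was lower too, with 5.38, 4.96 and 5.56 CPM in 7OFF livers and 118, 30.1 and 65.2 CPM in 12ON livers (-3.74 ± 0.75). No gene of these lists rose.

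Styk1, for a kinase-like protein, had 0.0699, 0.0902 and 0.0235 CPM in 7OFF livers and 10.8, 8.597 and 11.7 CPM in 12ON livers (-7.35 ± 1.01), from 7 reads over the 7OFF libraries and 1595 over the 12ON libraries. Other genes at the low end were Gpx6 (-6.71 ± 0.60), Amn (-5.82 ± 0.42), Psrc1 (-5.79 ± 0.59), Shisa8 (-5.72 ± 0.52), Jag2 (-5.66 ± 0.65) and Ggt1 (-5.39 ± 0.86). Gpx6, a glutathione peroxidase gene, had 0.489, 0.271 and 0.657 CPM in 7OFF livers and 50.3, 59.5 and 38.2 CPM in 12ON livers. Jag2, a Notch ligand gene, had 0.314, 0.361 and 0.5396 CPM in 7OFF livers and 20.2, 27.5 and 15.2 CPM in 12ON livers, and Ggt1, for the gamma-glutamyl transferase of fetal liver and bile ducts, 0.0699, 0.203 and 0.305 CPM in 7OFF livers and 11.9, 8.44 and 5.55 CPM in 12ON livers. In each of these 3 genes every 7OFF liver lay below 1 CPM and every 12ON liver above 5 CPM. Cacna1b, a calcium channel gene, fell (-6.14 ± 0.55, or -6.78 without 7OFF replicate 3). Fabp6, the ileal bile acid binding protein gene, had 0.0349, 0.0451 and 0.0704 CPM in 7OFF livers and 3.69, 20.1 and 7.73 CPM in 12ON livers, from 6 and 1526 reads in all. Its difference was -7.59 ± 2.31, or -6.72 without 12ON replicate 2, and its call was lost without 7OFF replicate 2 (adjusted p = 0.0521 by edgeR).

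**Figure D2:**
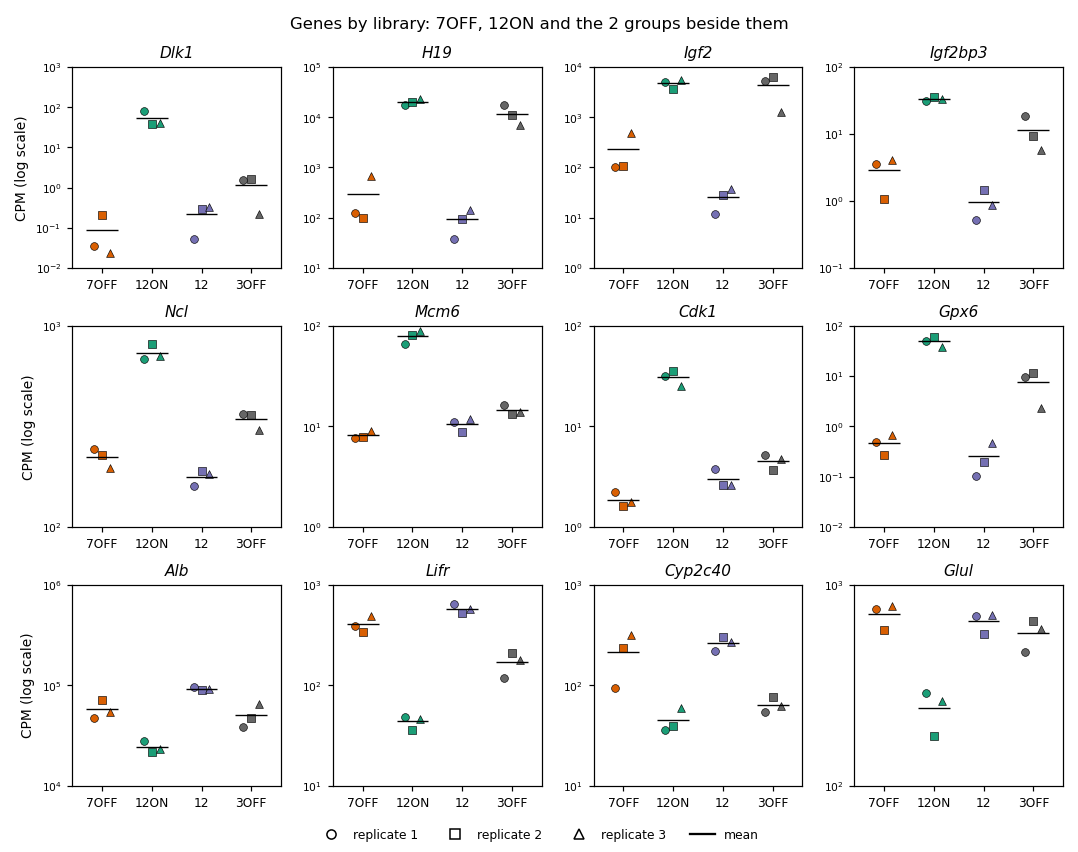
CPM by library on a log scale for 12 genes, in groups 7OFF, 12ON, 12 and 3OFF (x axis), 1 symbol per mouse, with bars at the group means. Fetal genes, Ncl, the cell cycle genes and Gpx6 in the upper 2 lines of panels lie lower in 7OFF than in 12ON, and the hepatocyte genes in the bottom line lie higher.

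Genes known as MYC targets were lower in 7OFF livers across several functions. Of the 32 direct MYC targets tested, 0 rose and 27 fell, with a median log2 difference of -0.82; among all genes 22.7% fell. Ncl, which encodes the nucleolar protein nucleolin, had 244, 227 and 196 CPM in 7OFF livers and 685, 808 and 708 CPM in 12ON livers (-1.72 ± 0.12). Nop56, a box C/D snoRNP protein gene, had 23.9, 29.2 and 25.5 CPM in 7OFF livers and 81.7, 109.8 and 106 CPM in 12ON livers (-1.92 ± 0.19). In both genes the highest 7OFF liver lay below the lowest 12ON liver. The RNA methyltransferase gene Fbl (-1.24 ± 0.10), the nucleophosmin gene Npm1 (-1.24 ± 0.11) and the helicase gene Ruvbl1 (-1.51 ± 0.14) fell. For RNA polymerase I and ribosome assembly, 0 rose and 25 fell of 30, with a median of -0.74. Polr1a, the largest subunit of RNA polymerase I, had 20.5, 23.6 and 20.6 CPM in 7OFF livers and 51.5, 51.5 and 46.1 CPM in 12ON livers (-1.204 ± 0.10). Rrp9 (-1.83 ± 0.16), Nhp2 (-1.59 ± 0.14), Wdr43 (-0.997 ± 0.10) and Utp15 (-1.003 ± 0.10), which act in rRNA processing, fell as well. All 30 cytosolic ribosomal protein genes fell, with a median of -0.73, Rpl32 (-1.13 ± 0.14) and Rps19 (-0.92 ± 0.12) among them.

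Protein synthesis beyond the ribosome was less uniform. Among 15 translation factors, 1 rose and 10 fell. Eef1e1, of the tRNA synthetase complex, fell (-1.48 ± 0.13), and the initiation factor genes Eif2s1 (-0.76 ± 0.12) and Eif4a1 (-0.59 ± 0.10) fell. Of 19 aminoacyl-tRNA synthetases 3 rose and 9 fell. The valine enzyme Vars (-1.79 ± 0.26) and the glycine enzyme Gars (-1.03 ± 0.14) fell, while the alanine enzyme Aars and the threonine enzyme Tars rose by 0.76 ± 0.12 and 0.98 ± 0.17. In mitochondrial ribosome and import, 3 of 18 rose and 8 fell, and at most 1 rose without any 1 library other than 7OFF replicate 3. The import receptor gene Tomm20 had 66.03, 70.1 and 63.1 CPM in 7OFF livers and 134, 152 and 131 CPM in 12ON livers (-1.07 ± 0.09), and the import channel genes Tomm40 (-0.86 ± 0.11) and Timm50 (-0.85 ± 0.09) fell. Of 16 chaperones 2 rose and 11 fell, with the chaperonin subunit Cct7 at -0.77 ± 0.10 and Dnaja1, an HSP70 partner, at 0.72 ± 0.13.

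RNA handling genes and nucleotide synthesis genes were also mostly lower. Of 18 splicing factors 0 rose and 16 fell, with a median of -0.62. Hnrnpa1, which encodes an RNA-binding protein of spliceosomes, had 64.2, 81.01 and 82.9 CPM in 7OFF livers and 198, 227 and 177 CPM in 12ON livers (-1.402 ± 0.14). Of 14 nuclear transport genes 0 rose and 12 fell, with a median of -1.06. The exporter Xpo1 (-1.18 ± 0.13) and the pore protein genes Nup205 (-1.61 ± 0.16) and Nup107 (-1.798 ± 0.21) fell. For purine, pyrimidine and one-carbon synthesis, 3 of 28 rose and 21 fell, with a median of -0.94. Mthfd1l, a mitochondrial folate enzyme of embryonic and dividing cells, had 3.07, 2.95 and 2.72 CPM in 7OFF livers and 39.99, 48.4 and 36.1 CPM in 12ON livers (-3.83 ± 0.26). Ctps, the CTP synthase gene, had 8.804, 10.1 and 7.74 CPM in 7OFF livers and 34.5, 44.7 and 44.2 CPM in 12ON livers (-2.21 ± 0.20). The folate enzyme Shmt1 (0.83 ± 0.17) and the purine enzyme Paics (0.63 ± 0.13) rose. Among 12 polyamine genes 5 rose and 2 fell, Sms (spermine synthase, -1.22 ± 0.14) among those lowered. These include genes of polyamine breakdown, such as Sat1, Smox and Paox. The synthetic enzyme genes Odc1 and Srm were counted instead with the direct MYC targets, of which 0 rose. Of the polyamine genes 3 rose without 12ON replicate 2 or 7OFF replicate 1, and with library totals alone 0 rose and 5 fell. Of 15 amino acid transporters 5 rose (3 without 12ON replicate 2 or 3) and 5 fell, against 3 and 7 with library totals alone. The arginine carrier gene Slc7a1 (-2.21 ± 0.23) and Slc7a5 (-1.4001 ± 0.24), of leucine uptake, fell, while the glutamine carrier Slc38a3 rose by 1.16 ± 0.24.

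Promoter letters of 3 lowered genes are shown because they hold CACGTG, the E-box to which MYC and MAX are known to bind, in capitals. Each run is the 250 bases before the start of the gene on its own strand, from RefSeq on GRCm38.p6. That of Igf2bp3 is chr6:49214955-49215204, minus strand, that of Gpx6 chr13:21311953-21312202, plus strand and that of Tomm20 chr8:126945922-126946171, minus strand.
Igf2bp3: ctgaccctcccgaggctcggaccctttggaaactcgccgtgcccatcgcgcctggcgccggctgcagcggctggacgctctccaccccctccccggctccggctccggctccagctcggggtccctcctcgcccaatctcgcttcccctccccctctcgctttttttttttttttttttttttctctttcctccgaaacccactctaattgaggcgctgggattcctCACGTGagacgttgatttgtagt
Gpx6: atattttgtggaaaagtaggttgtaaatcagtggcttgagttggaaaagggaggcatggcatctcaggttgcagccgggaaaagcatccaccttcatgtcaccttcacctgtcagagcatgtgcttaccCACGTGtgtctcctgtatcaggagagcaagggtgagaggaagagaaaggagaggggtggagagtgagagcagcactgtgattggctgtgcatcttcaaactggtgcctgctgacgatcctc
Tomm20: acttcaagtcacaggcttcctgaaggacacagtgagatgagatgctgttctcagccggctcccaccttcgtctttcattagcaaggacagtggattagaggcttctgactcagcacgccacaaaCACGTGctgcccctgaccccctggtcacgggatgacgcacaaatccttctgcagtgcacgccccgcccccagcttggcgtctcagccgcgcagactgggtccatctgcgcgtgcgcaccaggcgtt
CACGTG reads the same on both strands. It was in 82 of 934 such runs of genes lower at least 2-fold in 7OFF (8.78%), in 38 of 624 of genes higher at least 2-fold (6.09%) and in 795 of 10028 of all tested genes with a single promoter in the table (7.93%). Over all called genes it was in 210 of 2357 lower (8.91%) and 168 of 2142 higher (7.84%). Among direct MYC targets 3 of 20 held it (15%), and among genes of RNA polymerase I and ribosome assembly 2 of 26 (7.69%). A match describes the letters, and not binding.

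Cell division genes had the lowest median among the 65 lists. Of 30 genes of mitosis and cytokinesis, 0 rose and 30 fell, with a median log2 difference of -3.95. Cdk1, the kinase that drives entry into mitosis, had 2.201, 1.601 and 1.78 CPM in 7OFF livers and 31.5, 35.7 and 25.4 CPM in 12ON livers (-4.06 ± 0.44). Foxm1, the transcription factor of mitotic genes, had 1.01, 0.947 and 1.43 CPM in 7OFF livers and 15.1, 16.5 and 11.8 CPM in 12ON livers (-3.67 ± 0.42). Every 7OFF liver was below every 12ON liver in both. Mki67, which encodes the proliferation marker Ki-67, averaged 5.45 ± 3.01 CPM in 7OFF and 79.2 ± 21.9 CPM in 12ON (SD, n = 3 each; -3.85 ± 0.51). The spindle checkpoint kinase gene Ttk (-5.02 ± 0.56) and its partner Bub1 (-5.03 ± 0.58, or -5.63 without 7OFF replicate 3) fell. Of 26 genes of the DNA replication machinery, 1 rose and 25 fell, with a median of -2.05. Mcm6, a subunit of the replicative helicase, had 7.62, 7.82 and 8.96 CPM in 7OFF livers and 66.1, 81.5 and 87.8 CPM in 12ON livers (-3.27 ± 0.35). Cdt1, which loads that helicase, had 2.79, 2.41 and 2.74 CPM in 7OFF livers and 17.6, 23.3 and 23.4 CPM in 12ON livers (-3.02 ± 0.27), and Chaf1a, of the chromatin assembly factor, fell (-3.11 ± 0.32). Mcm10 went the other way, with 102, 41.4 and 14.4 CPM in 7OFF livers and 16.1, 11.9 and 18.3 CPM in 12ON livers. Its log2 difference of 1.76 ± 0.51 passed, but the groups overlapped and the call was lost without 7OFF replicate 1 (0.85).

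DNA repair and chromatin genes of dividing cells were lower as well. All 16 genes of DNA repair and checkpoint fell, with a median of -2.01. Uhrf1, which guides maintenance methylation, had 0.803, 1.15 and 2.28 CPM in 7OFF livers and 27.5, 41.2 and 45.5 CPM in 12ON livers (-4.72 ± 0.51), and the repair gene Brca1 fell (-2.45 ± 0.24). In DNA methylation and Polycomb 1 of 19 rose and 8 fell, among them Ezh2 (-1.66 ± 0.20), the methyltransferase of Polycomb, and the helicase gene Hells, with 1.05, 1.47 and 1.36 CPM in 7OFF livers and 16.3, 22.3 and 28.1 CPM in 12ON livers (-4.09 ± 0.48). Of 18 genes of G1/S cyclins, E2F and RB 1 rose and 11 fell, with a median of -1.15. The cyclin genes Ccna2 (-2.84 ± 0.38) and Ccne1 (-2.46 ± 0.35) fell. Rbl2, the p130 pocket protein gene of quiescent cells, rose by 0.87 ± 0.19, and Ccnd1 (cyclin D1) had 36.1, 90.5 and 79.8 CPM in 7OFF livers and 108, 178 and 126 CPM in 12ON livers, and its log2 difference of -1.0005 ± 0.45 missed the threshold. Among 22 p53 targets and CDK inhibitors 3 rose (1 without 12ON replicate 2 or 7OFF replicate 3) and 11 fell, with a median of -0.50. Cdkn1a (p21) had 5.55, 23.7 and 15.2 CPM in 7OFF livers and 73.8, 78.3 and 59.04 CPM in 12ON livers (-2.23 ± 0.48), and Phlda3 (-2.36 ± 0.33) and Bax (-1.31 ± 0.19) fell, while Perp rose by 0.83 ± 0.11.

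Promoters of 2 lowered cell cycle genes are shown for the E2F motifs TTTGGCGC and TTTCCCGC, in capitals, searched on both strands. E2F factors are known to control replication genes. The run of Mcm6 is chr1:128359706-128359955, minus strand, and that of Hells chr19:38930740-38930989, plus strand (GRCm38.p6, RefSeq, 250 bases before the start).
Mcm6: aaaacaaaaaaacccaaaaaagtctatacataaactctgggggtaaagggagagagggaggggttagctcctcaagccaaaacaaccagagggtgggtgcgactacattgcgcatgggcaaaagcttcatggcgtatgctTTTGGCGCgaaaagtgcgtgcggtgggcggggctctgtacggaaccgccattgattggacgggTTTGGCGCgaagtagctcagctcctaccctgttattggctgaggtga
Hells: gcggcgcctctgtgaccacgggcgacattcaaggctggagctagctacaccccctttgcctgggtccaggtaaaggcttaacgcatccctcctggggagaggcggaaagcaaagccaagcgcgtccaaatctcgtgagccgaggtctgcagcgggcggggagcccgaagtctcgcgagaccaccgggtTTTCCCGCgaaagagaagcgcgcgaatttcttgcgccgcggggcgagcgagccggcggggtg
TTTGGCGC was in 3 of 18 promoters of the replication list (16.7%), in 10 of 934 of genes lower at least 2-fold (1.07%), in 3 of 624 of genes higher at least 2-fold (0.481%) and in 76 of 10028 of tested genes (0.758%). Over all called genes it was in 20 of 2357 lower (0.849%) and 11 of 2142 higher (0.514%). TTTCCCGC was in 1 of 18 promoters of the replication list (5.56%), in 23 of 934 of genes lower at least 2-fold (2.46%), in 2 of 624 of genes higher at least 2-fold (0.321%) and in 167 of 10028 of tested genes (1.67%). Over all called genes it was in 54 of 2357 lower (2.29%) and 24 of 2142 higher (1.12%).

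Genes of the adult hepatocyte were higher in 7OFF livers in most lists, from transcription factors to secreted proteins. Of 24 repressors of fetal genes and hepatocyte factors, 13 rose and 0 fell, with a median of 0.56. With library totals alone 5 rose and 3 fell. Hnf4a, a master regulator of hepatocyte genes, had 927, 766 and 691 CPM in 7OFF livers and 497, 426 and 434 CPM in 12ON livers (0.81 ± 0.13). Cebpa, a factor of quiescent hepatocytes, had 656, 434 and 376 CPM in 7OFF livers and 239.8, 215 and 259.6 CPM in 12ON livers (1.04 ± 0.20). Ppara, the fatty acid receptor gene, rose by 1.42 ± 0.24, and Rora by 0.70 ± 0.13. Of 19 nuclear hormone receptors 12 rose and 0 fell, against 3 and 3 with library totals alone. Thrb, a thyroid hormone receptor gene, rose by 1.14 ± 0.18, and Nr1d1, a repressor of the clock, by 1.64 ± 0.38. Of 28 secreted hepatocyte proteins 22 rose and 1 fell, with a median of 1.004. The apolipoprotein gene Apoc3 had 1229, 1088 and 987 CPM in 7OFF livers and 359, 374 and 349 CPM in 12ON livers (1.61 ± 0.14), and Alb, with the values above, rose by 1.25 ± 0.22. Apoc2 was the gene that fell (-0.57 ± 0.20), a call lost without any 1 of 5 libraries, 12ON replicate 2 or 3 or any 7OFF replicate.

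In the growth hormone and IGF axis 15 of 26 genes rose and 0 fell, with a median of 0.51, against 7 and 2 with library totals alone. Lifr, a receptor subunit for leukemia inhibitory factor, had 384, 339 and 489.8 CPM in 7OFF livers and 48.4, 36.1 and 45.9 CPM in 12ON livers (3.22 ± 0.29). Ghr, the growth hormone receptor gene, had 558, 373 and 364 CPM in 7OFF livers and 121, 68.9 and 124 CPM in 12ON livers (2.04 ± 0.27). Igf1, the growth factor that growth hormone induces in liver, averaged 491 ± 39.1 CPM in 7OFF and 175 ± 44.2 CPM in 12ON (SD, n = 3 each; 1.49 ± 0.24). In these 3 genes the groups did not overlap. The signalling factor genes Stat5a and Stat5b, which act below Ghr, rose by 1.31 ± 0.19 and 0.73 ± 0.13.

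The 15 highest log2 differences that the naming rule gave were all of major urinary protein genes on chromosome 4, from 7.81 ± 1.2999 in Mup2 to 9.097 ± 1.59 in Mup7. These encode pheromone carriers that are highest in adult male liver and that growth hormone controls. Mup7 had 8853, 429 and 272 CPM in 7OFF livers and 10.2, 1.36 and 5.85 CPM in 12ON livers. The groups did not overlap, and 7OFF replicate 1 lay far above the other 7OFF livers. Without it the difference of Mup7 was 5.91, and without 12ON replicate 1 it was 9.75. That of Mup2 was 5.84 and 8.501. Mup copies are nearly the same in sequence and multi-mapped reads were dropped, which makes the value of any 1 copy uncertain. In the whole list of major urinary proteins and sex-biased genes 20 of 26 rose and 0 fell, with a median of 5.08. Without 7OFF replicate 1 the median was 3.56 and 16 rose, and without 12ON replicate 1 the median was 5.88. Over the libraries of low Xist the median was 5.01, and 22 rose and 1 fell. Slco1a1, a male-biased organic anion carrier gene, had 1117, 552 and 181 CPM in 7OFF livers and 20.2, 3.67 and 13.3 CPM in 12ON livers (5.64 ± 0.81, or 4.88 without 7OFF replicate 1). Serpina3k, a protease inhibitor gene, had 8665, 3757 and 2807 CPM in 7OFF livers and 184, 51.3 and 79.9 CPM in 12ON livers (5.596 ± 0.85, or 4.97 without 7OFF replicate 1 and 6.25 without 12ON replicate 1).

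The library of 7OFF replicate 1 also stood apart in clock genes, which were singled out after their values had been seen. Dbp, an output factor of the clock, had 115, 2.62 and 3.495 CPM in 7OFF livers and 6.02, 5.299 and 5.85 CPM in 12ON livers, and Per1, a clock repressor gene, 50.3, 2.98 and 8.77 CPM in 7OFF livers and 15.2, 12.3 and 21.3 CPM in 12ON livers. Arntl (BMAL1), which peaks in the opposite phase of the day, had 2.97, 35.04 and 33.9 CPM in 7OFF livers and 12.9, 13.6 and 15.4 CPM in 12ON livers, and its partner Npas2 0.2795, 9.29 and 7.79 CPM in 7OFF livers and 0.406, 0.506 and 0.283 CPM in 12ON livers. In Dbp, Per1 and Arntl 7OFF replicate 1 lay on the other side of the 12ON livers from the 2 other 7OFF livers. In Npas2 it was level with the lowest 12ON liver, and the 2 other 7OFF livers lay above all 12ON livers. Of 16 clock genes 6 rose and 0 fell, with a median of 0.84, and without this library 5 rose and 1 fell, with a median of 0.05. Clock rose by 0.85 ± 0.13 and Cry1, a repressor of CLOCK, by 1.51 ± 0.31, and both calls held without any single library. Elovl3, a fatty acid elongase gene with sex and day rhythms, had 37.3, 2.77 and 0.352 CPM in 7OFF livers and 0.148, 0.0220 and 0.0189 CPM in 12ON livers (7.62 ± 1.44, or 4.53 without 7OFF replicate 1 and 9.14 without 12ON replicate 1). A1bg, a female-biased plasma protein gene, had 0.175, 7.395 and 116 CPM in 7OFF livers and 0.111, 0.1099 and 0.566 CPM in 12ON livers (7.26 ± 2.06). That difference was 8.51 without 12ON replicate 3, and the call was lost without 7OFF replicate 3 (3.86). Of the 7OFF and 12ON libraries, those of high Xist (7OFF replicate 3 and 12ON replicate 2) were lowest in their groups in Mup7, Slco1a1 and Serpina3k. In A1bg 7OFF replicate 3 was the highest of its group and 12ON replicate 2 the lowest. The part of the hour of sampling or of sex in these values was not tested.

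**Figure D3:**
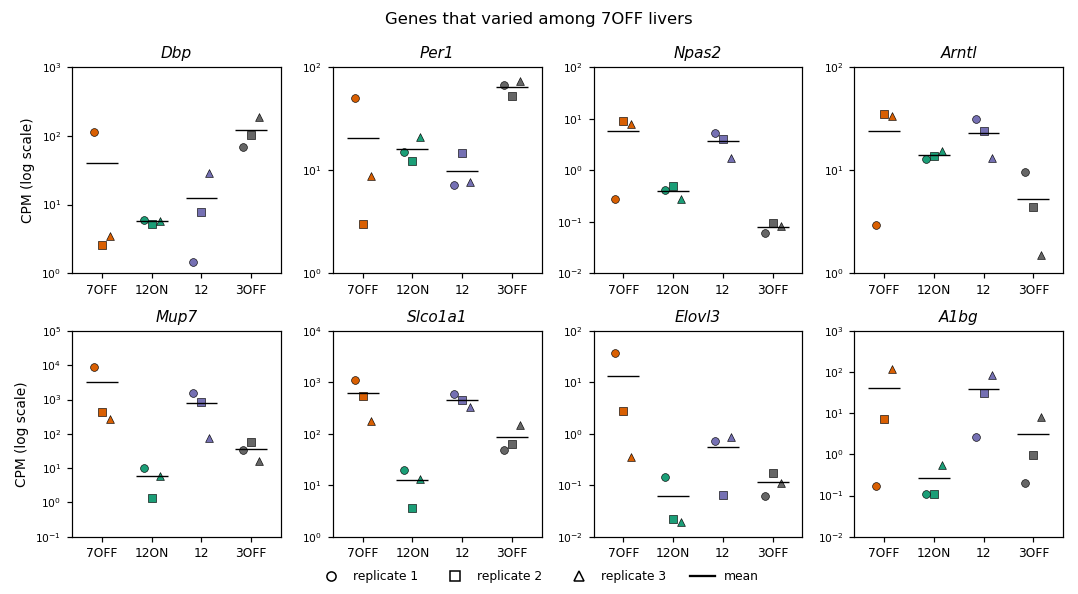
CPM by library on a log scale for 8 genes in groups 7OFF, 12ON, 12 and 3OFF (x axis), 1 symbol per mouse, with bars at the group means. The circle of 7OFF replicate 1 is the highest 7OFF symbol in Dbp, Per1, Mup7, Slco1a1 and Elovl3 and the lowest in Npas2, Arntl and A1bg.

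Both zones of the liver lobule were represented among the raised genes. Of 24 perivenous hepatocyte genes 18 rose and 0 fell, with a median of 1.42. These mark hepatocytes around the central vein, the zone that carbon tetrachloride injures. Glul, which encodes glutamine synthetase of the innermost perivenous cells, had 758, 594 and 787 CPM in 7OFF livers and 290.2, 176 and 265 CPM in 12ON livers (1.55 ± 0.23). Cyp2e1, the P450 that activates carbon tetrachloride, had 3374, 1606 and 2327 CPM in 7OFF livers and 485, 160.3 and 282 CPM in 12ON livers (2.98 ± 0.49). Every 7OFF liver exceeded every 12ON liver in both. Rgn, for a vitamin C pathway enzyme, rose by 1.95 ± 0.26. Of 24 periportal hepatocyte genes 15 rose and 3 fell, with a median of 0.85, against 10 and 6 with library totals alone. Pigr, the receptor that carries IgA into bile, had 1750.2, 1492 and 1524 CPM in 7OFF livers and 266, 107 and 194 CPM in 12ON livers (3.07 ± 0.40), and Hal, the histidase gene, rose by 2.21 ± 0.37. The lipid droplet gene Hsd17b13 fell, with 432, 514 and 420.2 CPM in 7OFF livers and 852, 863 and 873 CPM in 12ON livers (-0.92 ± 0.10), as did Sdsl (-0.59 ± 0.17). Aldh1b1 fell (-1.698 ± 0.52), or -2.81 without 7OFF replicate 3, and its call was lost without 7OFF replicate 2 (-1.499).

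Of 24 genes of the urea cycle and amino acid catabolism 18 rose and 0 fell, with a median of 0.96. Cbs, which turns homocysteine to cystathionine, had 517, 740.4 and 789.7 CPM in 7OFF livers and 183, 150.4 and 195 CPM in 12ON livers (1.95 ± 0.21). Kynu and Haao of the tryptophan pathway rose by 1.22 ± 0.14 and 1.46 ± 0.17, and Fah of the tyrosine pathway by 1.14 ± 0.20. Of 18 genes of gluconeogenesis and glycogen 9 rose and 1 fell (3 without 7OFF replicate 1), against 4 and 3 with library totals alone. Fbp1, the fructose bisphosphatase gene, had 961, 724 and 909.9 CPM in 7OFF livers and 289.8, 199 and 291 CPM in 12ON livers (1.74 ± 0.27), and G6pc, the glucose-6-phosphatase gene, rose by 2.03 ± 0.46, while the coactivator gene Ppargc1a fell (-1.06 ± 0.24). Of 24 genes of glycolysis and its fetal isozymes 3 rose (1 without 12ON replicate 2 or 7OFF replicate 1) and 10 fell. Pkm, the pyruvate kinase gene of fetal liver and dividing cells, had 30.3, 40.2 and 53.2 CPM in 7OFF livers and 149, 144 and 94.8 CPM in 12ON livers (-1.65 ± 0.20), and Eno1 (-1.18 ± 0.18), Tkt (-0.92 ± 0.09) and Pfkp (-1.404 ± 0.21) fell.

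Lipid genes rose in part. In fatty acid oxidation and ketogenesis 14 of 25 rose and 0 fell, with a median of 0.67. With library totals alone 8 rose and 2 fell, and without 7OFF replicate 1 the median was 0.39 and 10 rose. Fabp1, the liver fatty acid binding protein gene, had 3823, 2371 and 1825 CPM in 7OFF livers and 513, 453 and 681 CPM in 12ON livers (2.28 ± 0.35), and the peroxisomal enzyme gene Ehhadh rose by 2.404 ± 0.48. In fatty acid and triglyceride synthesis 9 of 24 rose and 2 fell, against 6 and 4 with library totals alone. Srebf1, the lipogenic transcription factor gene, rose by 1.36 ± 0.19 and the desaturase gene Fads1 by 1.41 ± 0.30. Of 27 genes of cholesterol synthesis and uptake 10 rose and 1 fell, against 6 and 8 with library totals alone. Ebp and Sc5d, late enzymes of sterol synthesis, rose by 1.403 ± 0.15 and 1.66 ± 0.23, and Abcg8, which exports sterols to bile, by 2.405 ± 0.37. Of 20 genes of bile acid synthesis and transport 7 rose and 4 fell (2 without 12ON replicate 2 or 7OFF replicate 1 or 2), against 5 and 5 with library totals alone. The uptake carrier Slc10a1 rose by 1.65 ± 0.25 and the conjugating enzyme Baat by 1.05 ± 0.15, and the basolateral exporter genes Slc51b (-1.72 ± 0.30) and Abcc4 (-1.73 ± 0.34) fell. Cyp7a1, the rate-limiting enzyme of bile acid synthesis, had 40.7, 37.4 and 96.1 CPM in 7OFF livers and 78.1, 24.6 and 105 CPM in 12ON livers, with overlap of the groups and a difference of -0.25 ± 0.54, short of the threshold.

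Of 25 cytochromes P450 14 rose and 2 fell, with a median of 1.21. Cyp2j5, an epoxygenase gene, had 616, 514 and 515 CPM in 7OFF livers and 161, 140.2 and 190.4 CPM in 12ON livers (1.74 ± 0.14). Cyp2c40, of arachidonic acid metabolism, had 94.2, 235 and 314 CPM in 7OFF livers and 35.6, 38.96 and 59.7 CPM in 12ON livers (2.26 ± 0.35). Cyp2c55 and Cyp2b10, both known to be inducible by drugs through the receptor CAR, were the 2 that fell (-3.53 ± 0.57 and -3.95 ± 0.76). Among UGT and sulfotransferases 13 of 19 rose and 2 fell, with a median of 1.14. The conjugating enzyme gene Ugt3a1 had 85.1, 38.7 and 39.5 CPM in 7OFF livers and 5.43, 2.33 and 5.43 CPM in 12ON livers (3.62 ± 0.42), and Ugt2a3 rose by 2.52 ± 0.28. Glutathione S-transferases were divided, with 7 of 21 higher and 8 lower, or 4 and 9 with library totals alone. Gstm3 had 73.3, 78.9 and 108 CPM in 7OFF livers and 722, 996 and 794 CPM in 12ON livers (-3.27 ± 0.39), and Gsta1 (-3.64 ± 0.47) and Gsta2 (-2.96 ± 0.36), near-identical copies whose counts are uncertain, fell. Mgst1, a microsomal member, rose by 1.496 ± 0.25 and Gstz1, of tyrosine breakdown, by 1.21 ± 0.15. The median of this list was 0.26, and it turned to -0.43 without 7OFF replicate 1, -0.27 without 7OFF replicate 3, -0.16 with library totals alone and -0.21 over the libraries of low Xist. Of 23 NRF2 targets 4 rose and 9 fell, or 3 and 17 with library totals alone. Gpx6, with the values above, Gpx2 (-3.35 ± 0.55) and the glutathione reductase gene Gsr (-0.86 ± 0.14) fell, and the antioxidant genes Cat (1.26 ± 0.18), Sod1 (1.05 ± 0.13) and Gpx1 (1.38 ± 0.20) rose.

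Promoters of 2 raised hepatocyte genes are shown with motifs of factors known in liver, in capitals, searched on both strands. The run of Cyp2c40 (chr19:39812815-39813064, minus strand) holds CAAAGTCCA, a motif of HNF4A, and that of Alb (chr5:90460620-90460869, plus strand) holds TTATGTAA, a D-box motif of DBP and its relatives.
Cyp2c40: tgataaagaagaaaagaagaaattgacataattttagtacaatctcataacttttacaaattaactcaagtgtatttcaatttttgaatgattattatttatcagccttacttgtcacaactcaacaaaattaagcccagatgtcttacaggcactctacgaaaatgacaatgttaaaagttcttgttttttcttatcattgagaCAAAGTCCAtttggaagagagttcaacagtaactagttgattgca
Alb: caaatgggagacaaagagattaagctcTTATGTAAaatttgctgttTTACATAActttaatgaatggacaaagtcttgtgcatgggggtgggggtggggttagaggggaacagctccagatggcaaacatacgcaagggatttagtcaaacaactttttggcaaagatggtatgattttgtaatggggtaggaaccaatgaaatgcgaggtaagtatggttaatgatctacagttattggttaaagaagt
CAAAGTCCA was in 11 of 624 such runs of genes higher at least 2-fold (1.76%), in 6 of 934 of genes lower at least 2-fold (0.642%) and in 51 of 10028 of tested genes (0.509%). Over all called genes the shares were close, 13 of 2142 of higher genes (0.607%) and 14 of 2357 of lower genes (0.594%). TTATGTAA was in 11 of 624 of genes higher at least 2-fold (1.76%), in 2 of 934 of genes lower at least 2-fold (0.214%) and in 68 of 10028 of tested genes (0.678%), and over all called genes in 20 of 2142 higher (0.934%) and 6 of 2357 lower (0.255%).

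**Figure D4:**
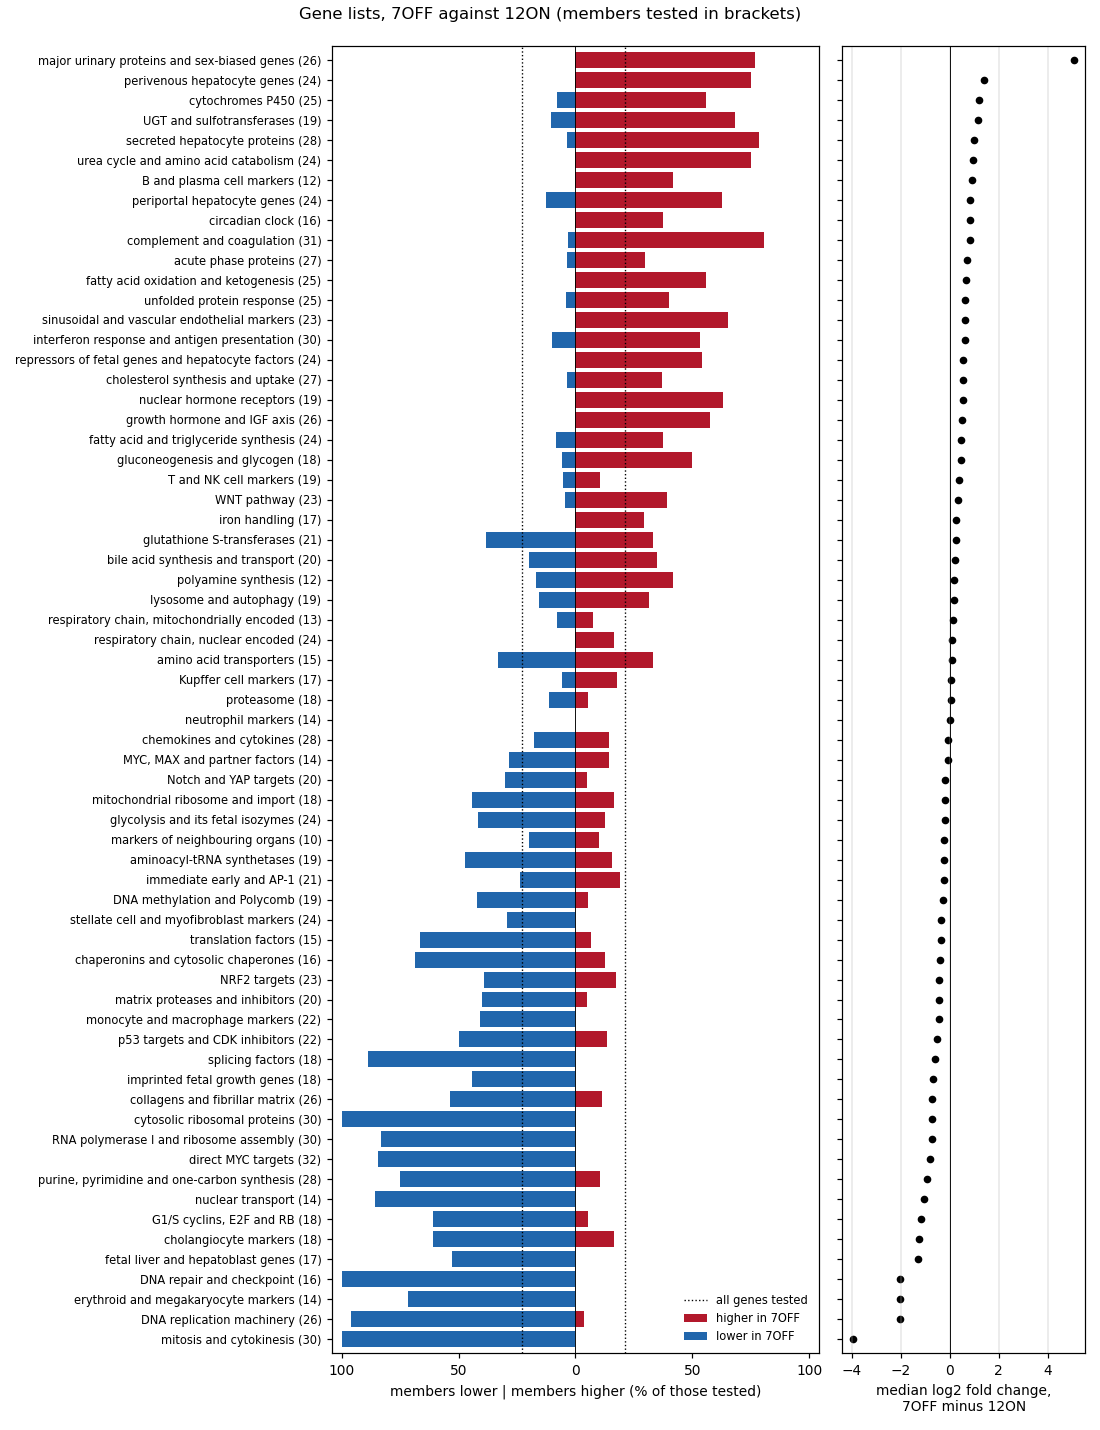
For each of 65 gene lists, the share of its tested members that were higher (red, to the right) or lower (blue, to the left) in 7OFF than in 12ON, and its median log2 difference (right panel). Dotted lines mark the shares of all genes, 21.4% higher and 22.7% lower; mitosis and cytokinesis lies at the bottom and the major urinary proteins at the top.

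Complement and coagulation genes of the hepatocyte were mostly higher. Of 31 genes of complement and coagulation 25 rose and 1 fell, with a median of 0.81. F5, coagulation factor V, had 462, 392 and 403 CPM in 7OFF livers and 177, 96.5 and 148 CPM in 12ON livers (1.57 ± 0.20), and the complement gene C8g, the lectin gene Mbl1 and the anticoagulant Proc rose by 1.73 ± 0.21, 1.74 ± 0.24 and 1.21 ± 0.16. C1qa, a macrophage complement gene, fell (-0.52 ± 0.19), a call lost without 12ON replicate 1 or any 7OFF replicate. Of 27 acute phase proteins 8 rose and 1 fell. Counts of rising genes were 4 without 12ON replicate 2 or 3, with library totals alone or with the mitochondrial term, and 5 without 7OFF replicate 3. Serpina3m, a protease inhibitor gene, rose by 2.25 ± 0.36 and Saa4 by 1.98 ± 0.37. Lcn2, the lipocalin of inflamed liver, had 51.7, 45.6 and 160.4 CPM in 7OFF livers and 577, 187 and 217 CPM in 12ON livers (-1.93 ± 0.75). The difference was -2.75 without 7OFF replicate 3 and -1.25 without 12ON replicate 1, and its call was lost without 12ON replicate 1 or 3 or 7OFF replicate 1 or 2. In iron handling 5 of 17 rose and 0 fell, against 3 and 3 with library totals alone, the gene of transferrin receptor Tfr2 by 1.19 ± 0.23 and the protease gene Tmprss6 by 0.79 ± 0.13.

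Of 30 genes of interferon response and antigen presentation 16 rose and 3 fell (1 without 12ON replicate 1 or 2 or 7OFF replicate 2), and with library totals alone 4 rose and 6 fell. B2m, the light chain of MHC class I, had 1445, 1066 and 1146 CPM in 7OFF livers and 612, 475 and 552 CPM in 12ON livers (1.16 ± 0.17), and H2-K1, a heavy chain gene, rose by 1.25 ± 0.23. Cd74, the invariant chain of MHC class II, fell (-0.74 ± 0.16). In the unfolded protein response 10 of 25 rose and 1 fell, with a median of 0.64. With library totals alone or the mitochondrial term 5 rose and 1 fell, and without 7OFF replicate 2 the median was 0.30 and 7 rose. Dnajb9, a chaperone gene of the endoplasmic reticulum, rose by 1.54 ± 0.25 and Edem1, of glycoprotein disposal, by 0.90 ± 0.12, while Asns, for asparagine synthetase, fell (-1.88 ± 0.43). Among 21 immediate early and AP-1 genes 4 rose and 5 fell, and 0 rose without 7OFF replicate 1 and 2 without 7OFF replicate 3 or any 12ON replicate. With library totals alone 0 rose and 8 fell. Jun, a core member of AP-1, had 22.9, 14.7 and 15.95 CPM in 7OFF livers and 59.6, 58.2 and 64.2 CPM in 12ON livers (-1.77 ± 0.26), and Klf6 (-1.64 ± 0.18) and Atf3 (-2.65 ± 0.38) fell. Of 24 nuclear encoded genes of the respiratory chain 4 rose and 0 fell, with Sdha at 0.51 ± 0.10, and of 13 mitochondrially encoded ones 1 rose and 1 fell, against 0 and 14, and 0 and 6, with library totals alone. In lysosome and autophagy 6 of 19 rose and 3 fell (5 without 7OFF replicate 3), against 3 and 9 with library totals alone. Ulk1, a kinase that starts autophagy, had 1.39 ± 0.26 and the protease gene Ctsd -0.83 ± 0.10. Of 18 proteasome genes 1 rose (3 without 7OFF replicate 3) and 2 fell, against 0 and 15 with library totals alone. In the WNT pathway 9 of 23 rose and 1 fell, with Lef1, a nuclear effector, at 2.91 ± 0.38, against 2 and 3 with library totals alone. Of 20 Notch and YAP targets 1 rose and 6 fell, the receptor gene Notch1 (-0.68 ± 0.12) besides Jag2 with the values above.

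Markers of other liver cells were lower in some types and higher in others. In bulk liver RNA, fewer cells of a type and less RNA per cell cannot be told apart. Of 23 sinusoidal and vascular endothelial markers 15 rose and 0 fell, with a median of 0.62, against 8 and 1 with library totals alone. Their summed level was 783 to 942 CPM in 7OFF and 528 to 566 CPM in 12ON. Kdr, the VEGF receptor of endothelium, had 48.7, 62.9 and 64.2 CPM in 7OFF livers and 30.2, 25.7 and 29.4 CPM in 12ON livers (1.04 ± 0.18), and Ehd3 rose by 1.06 ± 0.15. For B and plasma cells 5 of 12 markers rose and 0 fell, with summed levels of 153 to 242 CPM in 7OFF and 167 to 202 CPM in 12ON, which overlapped. Cd79a, of the B cell receptor, had 1.01, 1.87 and 1.103 CPM in 7OFF livers and 0.259, 0.264 and 0.264 CPM in 12ON livers (2.34 ± 0.45). Of 17 Kupffer cell markers 3 rose (1 without 12ON replicate 2 or 3) and 1 fell, against 1 and 5 with library totals alone. That list shares Cdh5, C6, Nr1h3 and Slc40a1 with the endothelial, sex-biased, nuclear receptor and iron lists, so it is not of Kupffer cells alone. Clec4f, the defining marker of these resident macrophages, averaged 209.5 ± 8.12 CPM in 7OFF and 201 ± 31.2 CPM in 12ON, a difference of 0.06 ± 0.20, short of the threshold. Among the 19 markers of T and NK cells, 2 were higher and 1 was lower, but 0 were higher without 12ON replicate 1 or 2 or 7OFF replicate 3, or with library totals alone. Cd3e, of the T cell receptor complex, was at 0.21 to 0.63 CPM in 7OFF and 0.33 to 0.48 CPM in 12ON. None of 14 neutrophil markers passed by edgeR or by DESeq2, and 0 had an unadjusted p under 0.05. Their median was 0.03, or -0.59 without 7OFF replicate 3. Csf3r, the receptor for G-CSF, had -0.22 ± 0.28, and without that library it passed (-0.66, adjusted p = 0.0463 by edgeR).

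Cholangiocyte and erythroid markers mostly fell in 7OFF, and fewer monocyte markers did. Of 18 cholangiocyte markers 3 rose and 11 fell, with a median of -1.26 and summed levels of 304 to 346 CPM in 7OFF and 369 to 395 CPM in 12ON. Krt19, a keratin of bile ducts, had 1.61, 3.58 and 3.003 CPM in 7OFF livers and 6.24, 7.54 and 5.19 CPM in 12ON livers (-1.197 ± 0.35), and the tight junction gene Cldn7 fell (-2.24 ± 0.42). The sodium channel gene Scnn1a went the other way and rose by 3.04 ± 0.40. Of 22 monocyte and macrophage markers 0 rose and 9 fell, with a median of -0.45, though their summed levels overlapped at 1209 to 1448 CPM in 7OFF and 1119 to 1545 CPM in 12ON. This list includes Arg1, which is also in the list of periportal hepatocyte genes, so the sums are not of macrophage RNA alone. Trem2, a marker of scar-associated macrophages, had 2.17, 2.86 and 4.199 CPM in 7OFF livers and 16.1, 13.7 and 10.3 CPM in 12ON livers (-2.11 ± 0.32), and Cd68 (-1.04 ± 0.14) and Lgals3 (-1.44 ± 0.17) fell. Of 28 chemokines and cytokines 4 rose (2 without 12ON replicate 2) and 5 fell, or 1 and 11 with library totals alone. The monocyte attractant Ccl2 fell (-1.72 ± 0.38), while Cxcl12 rose by 1.15 ± 0.19. Of 14 erythroid and megakaryocyte markers 0 rose and 10 fell, with a median of -2.02 and summed levels of 97.8 to 123 CPM in 7OFF and 217 to 641 CPM in 12ON. Without 12ON replicate 3 their median was -0.90 and 6 fell, and without 7OFF replicate 1, 6 fell. The hemoglobin gene Hbb-bs had 27.7, 21.5 and 28.6 CPM in 7OFF livers and 148, 56.5 and 172 CPM in 12ON livers (-2.28 ± 0.53). Of 10 markers of neighbouring organs 1 rose and 2 fell, their median of -0.22 was 0.37 without 12ON replicate 3, and their sum, 139 to 233 CPM in 7OFF and 487 to 592 CPM in 12ON, was mostly Lpl, with 83.3, 89.1 and 194 CPM in 7OFF livers and 494, 525 and 415 CPM in 12ON livers (-1.97 ± 0.27).

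**Figure D5:**
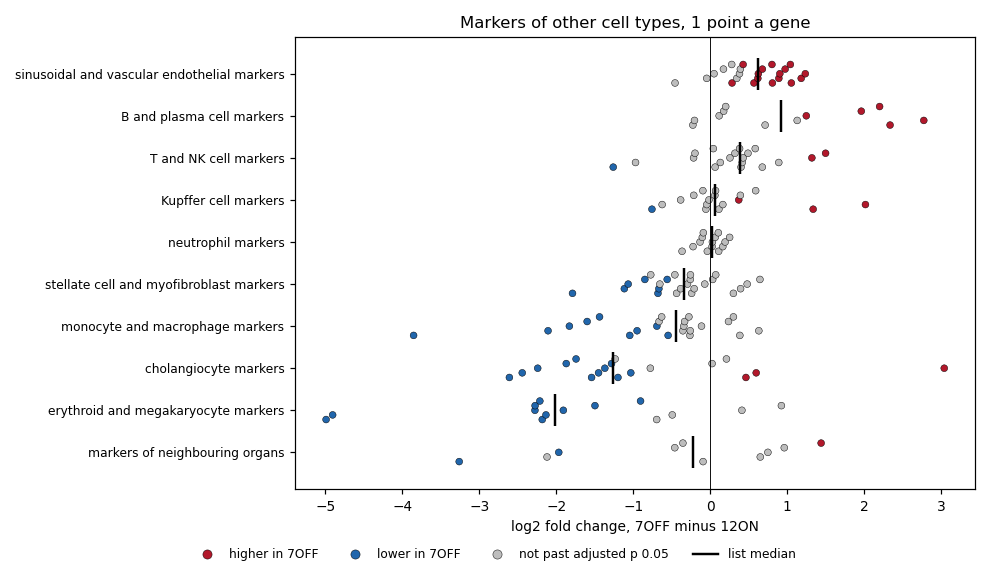
Log2 differences, 7OFF minus 12ON (x axis), of the markers of 10 other cell types and organs (y axis), 1 point per gene, with a bar at each list's median. Endothelial points lie mostly to the right of 0, and cholangiocyte and erythroid points mostly to the left.

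Among matrix genes more fell than rose, while the most abundant rose. Of 26 collagens and fibrillar matrix genes 3 rose and 14 fell, with a median of -0.71. Their summed level was nevertheless higher in 7OFF, at 6132 to 6909 CPM in 7OFF and 4123 to 5174 CPM in 12ON, with Vtn and Fn1 giving most of it. Col1a1, the main collagen of liver scars, had 19.9, 43.5 and 60.4 CPM in 7OFF livers and 121, 119 and 139 CPM in 12ON livers (-1.61 ± 0.32). Col4a1, of basement membranes, had 60.1, 82.7 and 99.8 CPM in 7OFF livers and 215, 182 and 232 CPM in 12ON livers (-1.37 ± 0.18). Fn1 and Vtn, which encode plasma matrix proteins of hepatocytes, averaged 1599.5 ± 245 CPM in 7OFF and 780.4 ± 162 CPM in 12ON, and 2960.3 ± 192 CPM in 7OFF and 1626 ± 255 CPM in 12ON (SD, n = 3 each). They rose by 1.04 ± 0.20 and 0.86 ± 0.17. Stellate cells and myofibroblasts had 24 markers, of which 0 rose and 7 fell, or 4 without 12ON replicate 2 or 7OFF replicate 1. With the mitochondrial share term 1 fell, and with library totals alone 14. Their summed levels overlapped, at 482 to 741 CPM in 7OFF and 599 to 689 CPM in 12ON. The crosslinking enzyme gene Loxl2 fell (-1.06 ± 0.22). Acta2, the smooth muscle actin of myofibroblasts, averaged 4.44 ± 0.554 CPM in 7OFF and 7.06 ± 1.75 CPM in 12ON (SD, n = 3 each; -0.67 ± 0.26), and its call was lost without any 1 library other than 12ON replicate 1. Of 20 matrix proteases and inhibitors 1 rose and 8 fell. Mmp12, the macrophage elastase gene, had 4.96, 6.31 and 7.93 CPM in 7OFF livers and 59.1, 85.4 and 48.03 CPM in 12ON livers (-3.32 ± 0.61), and the collagenase gene Mmp13 (-2.71 ± 0.46) and Mmp7 (-4.72 ± 0.61), of injured epithelium, fell.

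Group 12 holds livers sampled 12 days after injury without MycER activation. The labels do not say whether these mice received tamoxifen, nor whether MycER had been active earlier in mice of 12 or 3OFF, so the part of such earlier treatment in the differences below was not tested. Of 17789 genes, 439 were higher in 7OFF than in 12 (2.47%) and 588 lower (3.31%). Of these 1027 calls 42.7% were higher, and 62.1% with library totals alone. They became 350 to 652 without 7OFF replicate 1 or 2 or any replicate of group 12. The comparison shares its 7OFF libraries with the one above, and its differences are 7OFF minus 12. Osbpl3, an oxysterol-binding protein gene, had 39.3, 57.1 and 42.3 CPM in 7OFF livers and 5.604, 5.42 and 4.502 CPM in 12 livers (log2 difference 3.17 ± 0.22). Cib3, a calcium-binding protein gene, had 8.699, 8.09 and 5.94 CPM in 7OFF livers and 0.104, 0.353 and 1.03 CPM in 12 livers (3.68 ± 0.52, or 4.88 without 12 replicate 3). Igf2 had 12.04, 27.7 and 37.3 CPM in group 12 livers, below its 7OFF values given above, and rose by 3.18 ± 0.65. It rose by 1.99 without 7OFF replicate 3, and the call was lost without 12 replicate 1 (2.84). Hsd3b5, a male-biased steroid enzyme gene, and Mup20 were also at the high end. Hsd3b5 had 6.93 ± 1.66, or 7.91 without 12 replicate 2, and Mup20 had 5.32 ± 1.11, or 5.92 without 12 replicate 1. Both calls were lost without 7OFF replicate 1 (2.104 in Hsd3b5, 3.04 in Mup20). That of Hsd3b5 was also lost without any 1 replicate of group 12, and that of Mup20 without 12 replicate 2.

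Treh, which encodes the enzyme that splits trehalose, was among the 6 lowest against group 12, with 0.699, 0.473 and 0.117 CPM in 7OFF livers and 12.04, 12.1 and 17.3 CPM in 12 livers (-5.07 ± 0.45). Rian fell (-4.32 ± 0.54), with 14.997, 14.8 and 9.91 CPM in group 12. The WNT inhibitor gene Sfrp5 had 1.01, 1.51 and 0.235 CPM in 7OFF livers and 26.9, 61.3 and 8.53 CPM in 12 livers (-5.13 ± 1.06, or -4.26 without 12 replicate 2 and -5.78 without 7OFF replicate 2). Its call was lost without 7OFF replicate 1 (-5.19). Saa2, an acute phase gene, had 232, 39.5 and 119 CPM in 7OFF livers and 2464, 12398 and 931 CPM in 12 livers (-5.34 ± 1.44, or -3.703 without 12 replicate 2 and -6.05 without 7OFF replicate 1), and its call was lost without any single library but 12 replicate 3. The B cell attractant Cxcl13 fell (-4.18 ± 0.94, or -3.398 without 12 replicate 1), and its call was lost without 12 replicate 1 or 7OFF replicate 1 or 2. Several genes described above did not pass here, with 1.67 ± 0.61 in H19, 0.64 ± 0.85 in Gpx6, 0.32 ± 0.12 in Ncl, -0.67 ± 0.44 in Cdk1 and -0.52 ± 0.27 in Lifr. Others did. Gsta2 rose by 2.25 ± 0.43 against group 12, while it fell against 12ON. Cyp2b10 (-3.48 ± 0.76) and Ccl2 (-1.84 ± 0.39) fell, calls lost without 12 replicate 1 or 7OFF replicate 1, and in Cyp2b10 also without 7OFF replicate 2. Alb had 95888, 88449.9 and 91320.2 CPM in group 12, above all 7OFF livers, a difference of -0.68 ± 0.22 (adjusted p = 0.0834 by edgeR).

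Against 3OFF, livers sampled 3 days after injury without MycER activation, 538 genes were higher in 7OFF (3.02%) and 896 lower (5.04%), again with the same 7OFF libraries. Of these 1434 calls 37.5% were higher, and 14.8% with library totals alone and 25.8% with the mitochondrial term. They became 591 to 945 without 7OFF replicate 2 or any replicate of 3OFF. Differences here are 7OFF minus 3OFF. H19 fell, with 17294, 11001 and 6921 CPM in 3OFF and the 7OFF values given above (-5.305 ± 0.71, or -6.699 without 7OFF replicate 3). Igf2 fell likewise, with 5302, 6318 and 1246 CPM in 3OFF (-4.198 ± 0.68, or -5.39). No 7OFF liver reached the lowest 3OFF liver in either gene. Gpx6 (-4.05 ± 0.58) and Ncl (-0.63 ± 0.12) fell. Mup7 rose, with 32.99, 59.4 and 15.6 CPM in 3OFF (6.47 ± 1.41, or 3.28 without 7OFF replicate 1), and its call was lost without 3OFF replicate 1 (6.41). Elovl3 rose by 6.83 ± 1.36, or 3.74 without 7OFF replicate 1. Cyp2c40 rose, with 54.3, 76.4 and 61.3 CPM in 3OFF (1.74 ± 0.34), and Lifr rose by 1.27 ± 0.27, a call lost without 3OFF replicate 1 (1.07). Cdk1 and Mcm6 had differences of -1.29 ± 0.42 and -0.83 ± 0.33, and Alb 0.18 ± 0.22, none of which passed.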

How the data were processed

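Poly-A RNA from 18 mouse livers in 6 groups of 3 was sequenced as single reads of 50 nt. Per the submitters' processing notes, Trim Galore and TopHat2 were used with the build mm10, with no versions given. The deposited values are raw read counts per gene. Per the file headers they came from featureCounts 1.5.0-p1 with the Ensembl 82 annotation (GRCm38), exons summed by gene, 10 bases of overlap required, strand ignored, a read credited to every gene it overlapped and multi-mapped reads left out. The tables list 34937 genes.

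Genes were kept with filterByExpr (minimum count 10), which left 17789. All 18 libraries entered 1 quasi-likelihood fit in edgeR 4.0.16 (R 4.3.3) with TMM factors. Its residual degrees of freedom were 12, and the common dispersion corresponds to a biological coefficient of variation (BCV) of 0.202. Standard errors are the log2 fold change over the root of F. On simulated counts in which few genes differed the fit was tested before use. That simulation did not check the fit or its scaling where as many genes differ as here. Depth limits precision mainly for genes of few reads. No 2 replicates were near copies, with a chi-square per gene of 39.7 or more in 7OFF and 12ON.

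The comparison, its 65 gene lists (1402 genes, 1371 tested) and the naming rule were chosen with earlier results of these data known. The rule took the 15 highest and 15 lowest log2 differences in 7OFF vs 12ON, and 6 each in 7OFF vs 12 and 7OFF vs 3OFF, among called genes whose mean reached 4 CPM and whose groups did not overlap (5832, 821 and 1131 genes). It also took Myc, Esr1, up to 5 members per list and direction by p, defining markers, and members against their list. Genes outside it (Dbp, Per1, Arntl, A1bg, Afp, Mki67, Ccnd1, Cyp2e1, Cyp7a1 and Acta2, and Elovl3 against 12ON) were chosen after their values were seen. Some genes that the rule took are not reported here. Promoters came from RefSeq on GRCm38.p6. Alternatives were other scalings (RLE, upper quartile, library totals), filters, thresholds, DESeq2 1.42.0, the 2 groups alone, terms for Xist and the mitochondrial share, a replicate block and each library left out.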

Additional observations from a re-analysis of the deposited data

How the results depend on the processing

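For 7OFF vs 12ON, 7833 genes changed, and leaving out each library gave 6309 to 7435, with 2868 to 3638 higher and 3441 to 3797 lower. At least 2-fold changes numbered 2819, and 2427 to 2918. Tested against a 1.5-fold change, 2361 passed (959 higher, 1402 lower). With library totals alone 1348 were higher and 8204 lower. In 7OFF vs 12, the 1027 calls (439 higher, 588 lower) became 1678 with DESeq2 (736, 942), 417 with the mitochondrial share term (182, 235), 39 against a 1.5-fold change (16, 23) and 179 at an adjusted p under 0.01 (65, 114). With library totals 591 were higher and 361 lower, 62.1% of calls higher against 42.7%. Leaving out each library gave 350 to 1264, with 133 to 577 higher and 187 to 687 lower. In 7OFF vs 3OFF, the 1434 calls (538 higher, 896 lower) became 2229 with DESeq2 (956 higher), 701 with the mitochondrial share term (181, 520), 60 against a 1.5-fold change (10, 50) and 409 at an adjusted p under 0.01 (100, 309). Without a filter 337 were higher, and with library totals 192 were higher and 1106 lower, 14.8% of calls higher against 37.5%. Leaving out each library gave 591 to 1499, with 181 to 591 higher and 397 to 908 lower. With a replicate block 7908, 1025 and 1539 genes changed in the 3 comparisons. Deviations of same-numbered 7OFF and 12ON livers had correlations of 0.13, 0.02 and -0.08. Over all pairings the range was -0.16 to 0.17. With 3 livers a group these values cannot exclude a shared cage or litter, and the main fit did not pair livers. Where not named here, these counts stayed within 1.5 times under the alternatives run. The cause was not tested where they did not. With library totals alone the median turned from positive to negative in the lists of polyamine synthesis, amino acid transporters, bile acids, glutathione S-transferases, iron, both respiratory chain lists, lysosome, proteasome, WNT, Kupffer, neutrophil and T and NK cells. Under RLE and upper quartile scaling no list's median changed sign.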
